A study of Mus musculus with 9 samples.

Results

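Hepatic RNA of male offspring conceived by frozen-thawed embryo transfer (FET) was compared with that of naturally conceived (NC) male offspring, both fed chow. The comparison used the 3 FET-chow mice numbered 2, 3 and 4 and the 3 NC-chow mice numbered 1, 5 and 6, which are 6 of the 9 mice sequenced. The other 3 mice, IVF-chow, came from fresh embryo transfer. It covered the 6712 genes, of 55335 in the table, whose mean level over these 6 mice was at least 1 FPKM (fragments per kilobase of transcript, scaled to the mapped fragments of the library). All mice were B6D2F2 and 20 weeks old, and livers were taken after 4 h of fasting. FET embryos came from superovulated females, were fertilized and cultured in vitro, frozen, thawed and carried by pseudopregnant ICR females, whereas NC embryos arose and developed in naturally mated dams. Superovulation, culture, freezing and the recipient strain therefore cannot be told apart in this comparison. The labels do not say whether mice shared a litter or cage, so p-values measure the spread between these mice. The library names in the labels end in a number whose meaning is not stated, which is 67 for NC-chow mouse 1, 74 to 76 for the FET-chow mice and higher for NC-chow mice 5 and 6.

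The adult liver makes most plasma proteins, breaks down amino acids and disposes of their nitrogen as urea, synthesizes fatty acids, cholesterol and bile acids, and clears drugs and steroids through cytochrome P450 enzymes, conjugating enzymes and membrane transporters. Many of these genes differ along the lobule between the portal and the central vein, and many follow the daily clock. Ribosomal protein genes, in contrast, are used by every cell, and their mRNAs begin with a run of pyrimidines through which their translation is controlled.

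The promoters of 3 genes of interest are shown. They belong to transcription factors or clock regulators that separated the 6 mice, and they hold the motif searched for before the start. The clock genes Dbp and Per2, which also separated the groups after scaling, were searched for the E-box too. Dbp had none before its start and Per2 had no window, so neither is shown. Ciart encodes a repressor of the circadian clock, Nfe2l2 encodes NRF2, the activator of antioxidant genes, and Mafg encodes a small Maf protein that pairs with NRF2 on DNA. The sequences are RefSeq promoter windows on GRCm38.p6, given on the gene's strand, with capitals marking the E-box CACGTG (Ciart) or the antioxidant response element TGACNNNGC (Nfe2l2; Mafg carries it on the opposite strand). The Ciart stretch lies at chr3:95882247-95882364, from 136 to 19 bases before the RefSeq start, and holds 3 E-boxes. The Nfe2l2 stretch lies at chr2:75704875-75704913 and the Mafg stretch at chr11:120633741-120633789.
Ciart: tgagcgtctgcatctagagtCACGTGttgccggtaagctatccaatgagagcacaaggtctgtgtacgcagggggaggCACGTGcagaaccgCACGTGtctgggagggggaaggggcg
Nfe2l2: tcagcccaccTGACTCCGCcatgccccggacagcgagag
Mafg: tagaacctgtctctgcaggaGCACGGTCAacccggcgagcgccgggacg

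Windows ran from 250 bases before to 50 bases after the start and were searched on both strands. A gene counted if any of its windows held the motif. The E-box was in 3 of the 12 clock genes with a window (Ciart, Per1 and Tef, 25%) and in 8.09% of all 27025 genes with a window. Of these 3 clock genes, only Ciart separated the groups after scaling. The antioxidant response element was in 6 of 19 antioxidant and NRF2 target genes (31.6%) and in 14% of all genes with a window. A C followed by at least 4 pyrimidines was searched on the gene's strand within 5 bases of the start. It was found in 29 of 58 ribosomal protein genes (50%) and in 21.2% of all genes with a window. The D-box TTATGTAA was in 1 of 12 clock genes (Per3) against 0.938% of all windows. The sterol regulatory element, searched only as an exact sequence without variants, was in 0 of 12 cholesterol synthesis genes against 0.0913% of all windows. At so low a share, 0 of 12 would be found in almost any list of that size. The search therefore cannot show whether these genes carry such elements. The 3 E-boxes of Ciart do not overlap one another, and a match describes the letters only.

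The 6 libraries differed in depth and composition along with the groups. Estimated from the steps in the low FPKM values, the depth was 6610000, 11940000 and 13360000 mapped fragments in NC-chow mice 1, 5 and 6, but only 2020000 (mouse 2), 2810000 (mouse 3) and 2940000 (mouse 4) in FET-chow. Entries that collect ribosomal RNA (AY036118, Gm23935 and CT010467.1) took 26.5%, 3.49% and 5.03% of the summed FPKM in NC-chow, and the FET-chow mice had 41.8%, 29% and 31%, so NC-chow mouse 1 lay near the FET-chow mice. Nuclear protein-coding genes took 10.1% to 18.1% in NC-chow and 4.41% to 13.7% in FET-chow. Among tested nuclear protein-coding genes, 20 to 134 were listed at 0 in an NC-chow mouse and 183 to 950 in a FET-chow mouse. Most of the 118 tested proteasome and oxidative phosphorylation subunits are used by every cell. Of the 118, 0 to 1 were listed at 0 in an NC-chow mouse and 2 to 7 in a FET-chow mouse. A 0 is therefore given here only as a listed value. Hepatocyte markers were abundant in every mouse (all 6 tested; summed 10166 to 19027 FPKM in NC-chow and 4503 to 15315 in FET-chow). Their median log2 fold change was nevertheless -1.07 as deposited and -0.57 after the scaling described next, beside -0.45 and -0.13 for all genes, and after scaling 3 of the 6 had every FET-chow mouse below every NC-chow mouse (13.4% of all genes). The part of depth and composition in the differences below was not tested.

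**Figure D1:**
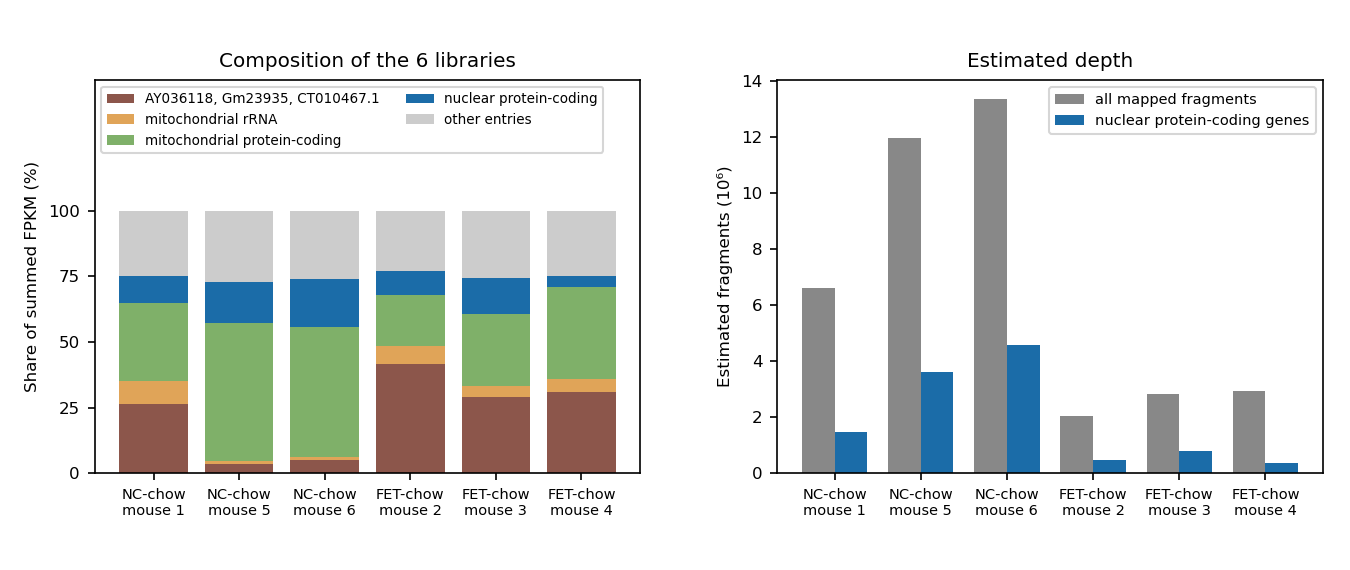
Left, share of summed FPKM (%) taken by 5 classes of entries in each of the 6 mice; right, estimated mapped fragments, in all and on nuclear protein-coding genes. The ribosomal RNA entries take 26.5% in NC-chow mouse 1 and 3.49% and 5.03% in NC-chow mice 5 and 6, against 29% to 41.8% in the FET-chow mice.

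Because FPKM shares a fixed total, genes were compared as deposited and after median-ratio scaling, which divides each mouse by its typical ratio to the other mice. As deposited, the median log2 fold change (FET-chow minus NC-chow, on log2(FPKM + 1)) over all genes was -0.45 and 73.9% of genes were below 0. After scaling the median was -0.13 and 57.1% were below 0, and after scaling to the nuclear protein-coding total it was -0.05. Gene lists are described against these medians. In whole liver, fewer cells of a type and less RNA per cell cannot be told apart.

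In the limma fit across all genes, 14 of 6712 genes (0.209%) passed an adjusted p of 0.05, 4 higher (0.0596%) and 10 lower (0.149%) in FET-chow, and after scaling 26 passed (0.387%; 6 higher, 0.0894%, and 20 lower, 0.298%). The genes that passed both ways numbered 6: Tymp, Tmem254b, Gm27216 and Gm7329 were lower and Gm14861 and Gm23386 were higher. Only 6 of the 14 were protein-coding, against 20 of the 26 after scaling. In 12 of the 14 and 21 of the 26 the mean of 1 group was under 1 FPKM, so that the gene reached the minimum through the other group alone, against 24.3% of all genes tested. Such a gene had to differ to be tested, and the p-values of those listed at or near 0 in 1 group below are given with that limit. Leaving out 1 mouse changed the count to 111 without NC-chow mouse 1, 8 without NC-chow mouse 6, 29 without FET-chow mouse 2, 1 (Gm23386) without FET-chow mouse 3 and 7 without FET-chow mouse 4. After scaling, the count was 169 without NC-chow mouse 1, 4 and 5 without NC-chow mice 5 and 6 and 7 without FET-chow mouse 4. With NC-chow mouse 1 as the only NC-chow mouse, 9 genes passed, none of them among the 14.

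Among the protein-coding genes that were lower in FET-chow, Tymp (thymidine phosphorylase, which breaks down thymidine; chr15:89371931-89377039) was at 5.34, 24.6 and 42.7 FPKM in NC-chow mice 1, 5 and 6 and was listed at 0 in all 3 FET-chow mice, where 3 fragments, the limit that a count of 0 allows for counting error alone, would give 0.501 to 0.729 FPKM at the estimated depth (adjusted p = 0.00156, and 0.031 after scaling). Tmem254b, a transmembrane protein gene (chr14:26203369-26207041), was at 6.59, 13.1 and 21.6 FPKM in NC-chow and was listed at 0 in FET-chow (adjusted p = 0.00476, and 0.00261 after scaling). The groups did not overlap for either gene, and NC-chow mouse 1 was the lowest NC-chow mouse for both.

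Got1, the cytosolic aspartate aminotransferase (chr19:43499752-43524605), was at 2.6, 20.8 and 21.8 FPKM in NC-chow and at 0, 0.71 and 0 in FET-chow (log2 fold change -3.34 ± 0.77 SE, adjusted p = 0.0419). Dhcr7, the last enzyme of cholesterol synthesis (chr7:143823145-143848410), was at 4.88, 8.61 and 9.04 FPKM in NC-chow and at 0.493, 0.478 and 0 in FET-chow (log2 fold change -2.67 ± 0.60, adjusted p = 0.0357). Mafg (chr11:120625117-120633600) was at 6.27, 13.7 and 15.3 FPKM in NC-chow and at 0, 0 and 1.32 in FET-chow (log2 fold change -3.18 ± 0.61, adjusted p = 0.00575). Every NC-chow mouse lay above every FET-chow mouse for these 3 genes, and after scaling their adjusted p was 0.0515, 0.0535 and 0.123.

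Chrna4, a nicotinic acetylcholine receptor subunit (chr2:181018380-181043546), was at 0.487 FPKM in NC-chow mouse 1, at 46.5 and 33 in NC-chow mice 5 and 6 and listed at 0 in FET-chow (adjusted p = 0.00958, and 0.145 after scaling). The difference therefore rests on NC-chow mice 5 and 6. The 4 non-coding genes that were lower, Gm27505, Hectd2os, Gm27216 and Gm7329, were also listed at 0 in all FET-chow mice. Of these, Gm27216 was even across NC-chow (12.1, 11 and 9.49 FPKM), whereas Hectd2os, an antisense gene whose reads cannot be told apart from those of its partner without strand, was at 64.6 FPKM in NC-chow mouse 1 and at 9.51 and 7.56 in the others. For Gm27505, 3 fragments would give 9.28 to 13.5 FPKM in a FET-chow mouse, more than the 4.64 FPKM of NC-chow mouse 1.

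The 4 genes higher in FET-chow were short non-coding or pseudogene entries. Gm23386, a small Cajal body RNA (chr11:19693155-19693298), was listed at 0 in all NC-chow mice and was at 14.4, 8.92 and 6.18 FPKM in FET-chow, which is an estimated 3 or 4 fragments in each (adjusted p = 0.00156, and 0.00261 after scaling). Rnu3b3, a U3 small nucleolar RNA that takes part in ribosomal RNA processing, was at 4.27, 0 and 0.526 FPKM in NC-chow and at 15.3, 26.3 and 16.8 in FET-chow (log2 fold change 3.31 ± 0.73, adjusted p = 0.0302). The processed pseudogenes Gm14861 (0, 0 and 0.286 against 8.28, 8.03 and 3.05 FPKM; adjusted p = 0.0142) and Gm6058 (4.6, 0.153 and 0.14 against 53.9, 21.5 and 20.7 FPKM; adjusted p = 0.0266) completed the set. Over the alternatives run, the adjusted p of the 14 genes ranged from 2.37e-05 to 1.

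**Figure D2:**
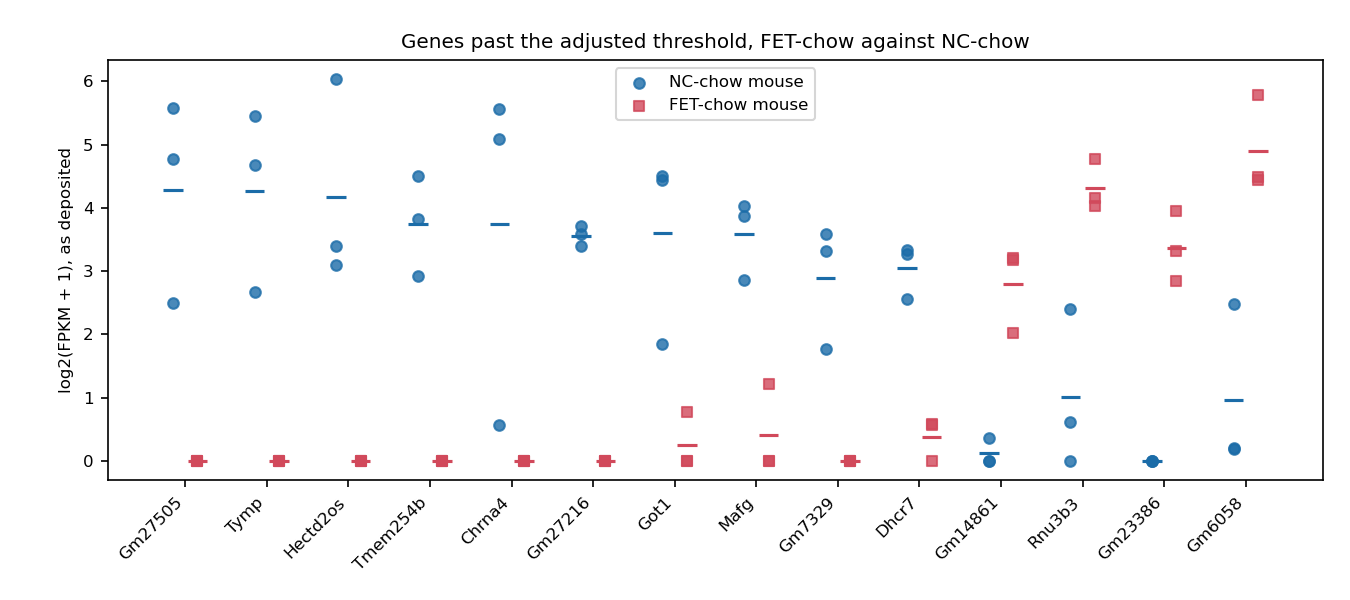
log2(FPKM + 1) of the 14 genes past the adjusted threshold, as deposited, with 1 point per mouse and lines at the group means (blue circles NC-chow, red squares FET-chow). Of the 10 lower genes, 7 are listed at 0 in all FET-chow mice, and the groups do not overlap for any of the 14.

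Scaling added 20 genes, named here after their values were seen where the naming rule did not reach them. Nfe2l2, whose antioxidant response element is shown above, was at 13.7, 24.9 and 23.3 scaled FPKM in NC-chow and at 3.23, 2.08 and 0.69 in FET-chow (log2 fold change -2.91 ± 0.40, adjusted p = 0.0274). Cyp4a10, a fatty acid omega-hydroxylase and PPARα target, was at 42.1, 35.7 and 51.1 scaled FPKM in NC-chow and at 4.53, 6.07 and 0 in FET-chow (log2 fold change -3.68 ± 0.64, adjusted p = 0.0481). Rgs16, a regulator of G protein signalling, was at 1.99, 6.95 and 4.94 against 0.335, 0 and 0 scaled FPKM (adjusted p = 0.0481). S100a10, a partner of annexin A2, was at 25, 25.4 and 35.3 against 6.07, 5.28 and 7.82 scaled FPKM (log2 fold change -2.00 ± 0.35, adjusted p = 0.0481), and Slc39a14, a zinc and iron importer, was at 3.93, 3.75 and 5.27 against 0.431, 0.964 and 0.623 (adjusted p = 0.0461). No mouse of one group reached the range of the other for these genes. Mrpl22, a mitochondrial ribosomal protein, was also lower (3.06, 6.57 and 4.74 against 0, 0.725 and 0 scaled FPKM; adjusted p = 0.0387). Enho, which encodes the secreted peptide adropin, was higher in FET-chow, at 1.08, 0.733 and 0 against 4.8, 7.77 and 6.68 scaled FPKM (log2 fold change 2.25 ± 0.36, adjusted p = 0.035). The spliceosomal RNA Gm24924 and the pseudogene Gm15823 were higher too (adjusted p = 0.031 and 0.0314). As deposited, the adjusted p of the genes named in this paragraph lay above 0.05, from 0.0525 for Rgs16 to 0.258 for S100a10, and over all alternatives it ranged from 0.00711 to 1.

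Cytosolic ribosomal protein genes had the highest median on both scales among the protein-coding lists with at least 10 tested genes. Their median log2 fold change was 0.12 as deposited and 0.59 after scaling. Leaving out 1 mouse, it ran as deposited from -0.20 without FET-chow mouse 3, where its sign turned, to 0.53 without FET-chow mouse 4, and after scaling from 0.50 to 0.69. In all, 76 of the 79 tested genes lay above the median of all genes as deposited and 77 after scaling. After scaling, every FET-chow mouse was above every NC-chow mouse for 45 of the 79, against 7.93% of all genes, and none had the groups separated the other way. Scaled to the nuclear protein-coding total, the count was 53 of 79 against 9.97% of all genes. As deposited, however, only 1 of 79 (Rpl41) was separated in that direction, against 1.94% of all genes, and none passed the adjusted threshold under either scale. At an unadjusted p under 0.05, 0 of 79 were higher as deposited and 26 after scaling, against 2.04% and 5.91% of all genes.

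Rpl36, a protein of the large ribosomal subunit, was at 205, 319 and 301 scaled FPKM in NC-chow and at 612, 728 and 630 in FET-chow (log2 fold change 1.28 ± 0.36, adjusted p = 0.15). Rps15, of the small subunit, was at 228, 211 and 179 against 515, 499 and 359 scaled FPKM (log2 fold change 1.14 ± 0.39, adjusted p = 0.206). Rpl41 was at 13, 8.88 and 10.7 against 96.3, 30.6 and 64.1 scaled FPKM (log2 fold change 2.32 ± 0.52, adjusted p = 0.0951). The lowest FET-chow value was above the highest NC-chow value for each. Leaving out any 1 mouse left 46 to 60 of the 79 separated this way after scaling (9.01% to 15.8% of all genes), and against NC-chow mouse 1 alone the list's median was 0.48, beside -0.10 for all genes. These genes have near-identical pseudogene copies between which reads may have been split; tested pseudogenes named for ribosomal proteins had a scaled median of 0.57.

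Other protein machinery did not stand apart in the same way. The scaled medians were 0.11 for 66 mitochondrial ribosomal protein genes, -0.06 for 56 translation factors, 0.00 for 38 proteasome subunits and -0.25 for 80 nuclear oxidative phosphorylation subunits. As deposited they were -0.29, -0.37, -0.41 and -0.68, or -0.01, -0.14, -0.03 and -0.13 without FET-chow mouse 4. Their lowest values were -0.61 (without NC-chow mouse 1) and, without FET-chow mouse 3, -0.52, -0.72 and -1.08. Leaving out 1 mouse turned the sign of the first 3 scaled medians, which ran from -0.01 (without NC-chow mouse 1) to 0.23 (without NC-chow mouse 6), from -0.09 (without NC-chow mouse 5) to 0.08 (without FET-chow mouse 2) and from -0.09 (without FET-chow mouse 3) to 0.13 (without FET-chow mouse 2). Beside the median of all genes in the same fits, these 3 stayed higher, by 0.12 to 0.34, 0.03 to 0.16 and 0.08 to 0.22. The oxidative phosphorylation median after scaling was -0.03 without FET-chow mouse 4 and -0.38 without FET-chow mouse 3. For the 13 protein-coding genes of the mitochondrial genome the median was -0.68 as deposited and -0.17 after scaling, both below the median of all genes, but -0.04 after scaling to the nuclear protein-coding total, just above it. The scaled median rested on single mice, at -0.82 without FET-chow mouse 4 and 0.34 without FET-chow mouse 2. The groups overlapped for every one of the 13, but without FET-chow mouse 4, 7 of the 13 were separated downward after scaling (20.2% of all genes). mt-Atp6, a subunit of ATP synthase, was at 48202 and 44046 FPKM in NC-chow mice 5 and 6 but at 8200 in NC-chow mouse 1, beside 4489 to 8459 in FET-chow.

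Genes of drug and steroid clearance lay below the median of all genes. The P450 list held the 42 tested genes of families 1 to 4 whose symbols end in a number, so Cyp4a12a and Cyp4a12b were counted with fatty acid oxidation and not here. Its median log2 fold change was -1.19 as deposited and -0.85 after scaling, and all FET-chow mice were below all NC-chow mice for 16 as deposited (16.8% of all genes) and 13 after scaling (13.4% of all genes), or 22 without NC-chow mouse 1 (25% of all genes). Of the 13, 4 reached the 1 FPKM minimum only through NC-chow and so had to differ to be tested. Among all genes separated downward, the same held for 493 of 1130 as deposited and 388 of 897 after scaling. Cyp4a10 passed the threshold after scaling, and no other gene of the list passed on either scale. Cyp2a5, which oxidizes coumarin and nicotine, was at 410, 222 and 227 scaled FPKM in NC-chow and at 112, 17.5 and 60.1 in FET-chow (log2 fold change -2.45 ± 0.66, adjusted p = 0.14). Cyp2e1, which oxidizes ethanol, was at 177, 181 and 236 against 96.5, 101 and 102 scaled FPKM (log2 fold change -0.97 ± 0.35, adjusted p = 0.222). Not every abundant P450 lay low, since Cyp2d10 overlapped between the groups at 149, 189 and 172 against 159, 246 and 143 scaled FPKM (log2 fold change 0.07 ± 0.36). Several of these genes have close paralogs, so their single values are uncertain.

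The conjugating enzymes and transporters had medians below that of all genes on both scales. The 22 glutathione S-transferases had medians of -1.24 as deposited and -0.79 after scaling, the 21 sulfotransferases and UDP-glucuronosyltransferases -1.09 and -0.65, and the 22 hepatic transporters -1.02 and -0.54 (-0.34 after scaling without NC-chow mouse 5). Separated downward were 6 of the glutathione S-transferases as deposited and 7 after scaling, and 7 of the 21 sulfotransferases and UDP-glucuronosyltransferases on each scale. The shares of all genes were 16.8% as deposited and 13.4% after scaling. After scaling, 2 of the 7 in each list reached the 1 FPKM minimum only through NC-chow and so had to differ to be tested. The same held for 1 of the 8 transporters below. Of the transporters, 8 of 22 were separated downward as deposited and 8 after scaling, against 16.8% and 13.4% of all genes (13 of 22 after scaling without NC-chow mouse 1, against 25%), including Slc10a1, the main importer of bile acids (22, 25.3 and 22.2 against 10.3, 6.59 and 5.36 scaled FPKM; log2 fold change -1.56 ± 0.38, adjusted p = 0.118) and Abcb11, the bile salt export pump (36.8, 35.2 and 36 against 20.4, 20.8 and 23.8; log2 fold change -0.71, adjusted p = 0.724). Gstm4 was at 5.22, 5.37 and 6.31 against 0, 1.73 and 1.15 scaled FPKM (adjusted p = 0.078). The Pi-class Gstp1 went the other way, at 30.2, 85.3 and 59.6 against 127, 208 and 350 scaled FPKM (log2 fold change 1.95 ± 0.48, adjusted p = 0.118), and it and its neighbour Gstp2 were the 2 glutathione S-transferases separated upward on both scales, against 1.94% of all genes as deposited and a near share, 7.93%, after scaling.

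Among 23 antioxidant genes and NRF2 targets the median was -0.90 as deposited and -0.45 after scaling (-0.85 after scaling without FET-chow mouse 3), and 7 were separated downward on both scales, against 16.8% and 13.4% of all genes (13 of 23 after scaling without FET-chow mouse 3, against 22.6%): Nfe2l2, Keap1 (the inhibitor of NRF2), Mafg, Nqo1, Prdx3, Prdx6 and Cat. Nqo1, a standard NRF2 target, was at 3.96, 1.17 and 0.925 against 0, 0.732 and 0 scaled FPKM (adjusted p = 0.235), and catalase (Cat) at 245, 241 and 198 against 166, 175 and 178 (log2 fold change -0.39 ± 0.33, adjusted p = 0.555). Thus Nfe2l2 and Mafg each passed the threshold on 1 of the 2 scales, and the other 5 did not pass on either. Of the 7, 3 reached the 1 FPKM minimum only through NC-chow.

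Many genes of amino acid catabolism and the methionine cycle separated the groups. All FET-chow mice lay below all NC-chow mice for 20 of 45 tested genes on each scale, against 16.8% of all genes as deposited and 13.4% after scaling, and for none in the opposite direction. Scaled to the nuclear protein-coding total, 16 were separated downward and 2 upward, against 11.4% and 9.97% of all genes. Of the 20 after scaling, 4 reached the 1 FPKM minimum only through NC-chow, beside 388 of the 897 among all genes. The list's median was -1.05 as deposited and -0.66 after scaling, and Got1 passed the threshold as deposited. Bhmt, which remethylates homocysteine with betaine, was at 261, 299 and 264 scaled FPKM in NC-chow and at 104, 32.2 and 22.6 in FET-chow (log2 fold change -2.67 ± 0.57, adjusted p = 0.0876). Oat, ornithine aminotransferase, was at 191, 104 and 150 against 51.5, 32.5 and 20 (log2 fold change -2.12 ± 0.45, adjusted p = 0.0876). Tat, tyrosine aminotransferase and a glucocorticoid target, was at 98.6, 173 and 104 against 28.6, 30 and 73.7 (log2 fold change -1.58 ± 0.43, adjusted p = 0.143). For each of the 3 the highest FET-chow mouse stayed below the lowest NC-chow mouse. Leaving out any 1 mouse left 20 to 29 of the 45 separated downward after scaling, and 14.7% to 25% of all genes.

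The 10 urea cycle genes had medians of -1.13 as deposited and -0.67 after scaling, but only -0.10 after scaling against NC-chow mouse 1 alone and -1.25 without that mouse. Cps1, which fixes ammonia at the entry to the cycle, was at 21.6, 37.9 and 29.6 against 13, 12.3 and 14.4 scaled FPKM (log2 fold change -1.08 ± 0.48, adjusted p = 0.282), and Otc, the next enzyme, at 50.7, 31.2 and 29.1 against 26.3, 26.2 and 26.7 (log2 fold change -0.43 ± 0.35, adjusted p = 0.541). For Ass1, argininosuccinate synthase, NC-chow mouse 1 lay inside the FET-chow range, at 41.2, 167 and 123 against 67.9, 37.1 and 58.7 scaled FPKM (log2 fold change -0.83 ± 0.50, adjusted p = 0.421).

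**Figure D3:**
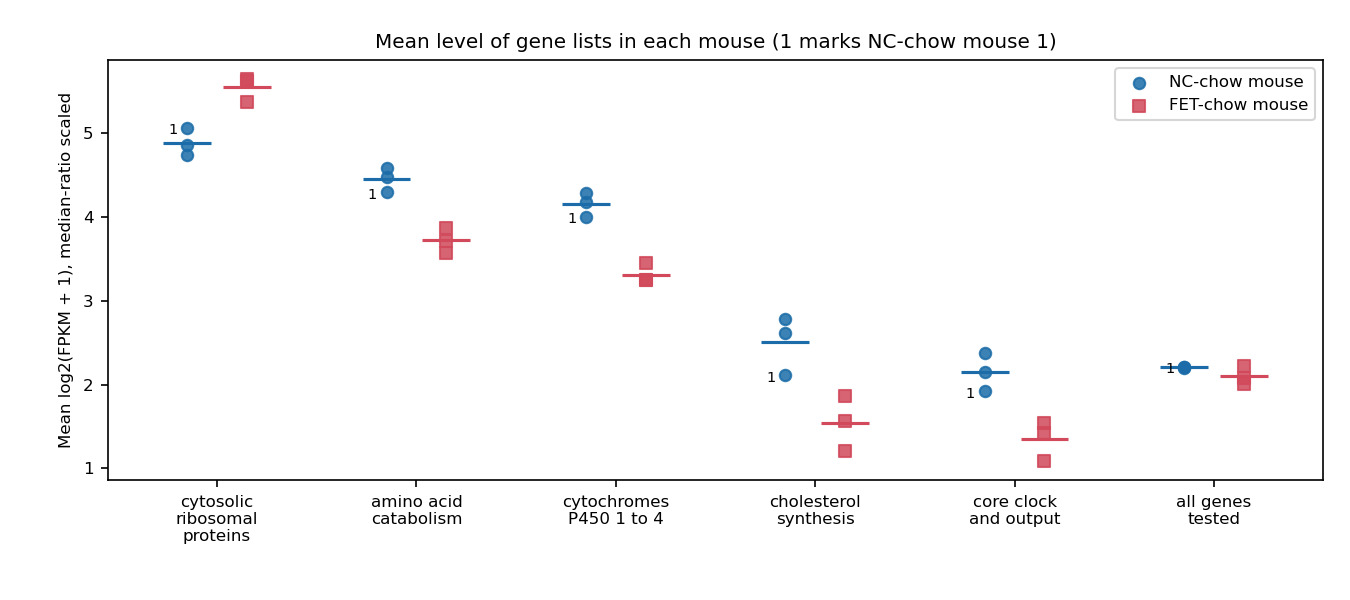
Mean scaled log2(FPKM + 1) of 5 gene lists and of all genes tested in each mouse, with lines at the group means (blue circles NC-chow, red squares FET-chow; 1 marks NC-chow mouse 1). The ribosomal protein means are 4.73 to 5.06 in NC-chow and 5.37 to 5.64 in FET-chow, and the P450 means 4.00 to 4.28 and 3.24 to 3.45.

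Cholesterol synthesis genes lay low on both scales. The 19 tested genes had medians of -1.42 as deposited and -1.11 after scaling, with 7 separated downward as deposited and 9 after scaling, against 16.8% and 13.4% of all genes, and Dhcr7 past the threshold as deposited. Without NC-chow mouse 1, 14 of the 19 were separated downward after scaling, against 25% of all genes. Only NC-chow brought 6 of the 19 to the 1 FPKM minimum, Dhcr7 among them, and these had to differ to be tested. They make up 5 of the 7 genes separated as deposited and 5 of the 9 after scaling, beside 493 of 1130 and 388 of 897 among all genes. The counts and medians of this list are therefore a description with that limit. Nsdhl, which removes a methyl group on the way to cholesterol, was at 4.48, 6.83 and 7.76 against 1.22, 1.19 and 0 scaled FPKM (log2 fold change -2.09 ± 0.39, adjusted p = 0.0648). Fdps, an earlier enzyme of the same pathway, overlapped between the groups at 14.6, 18.6 and 19.7 against 36.3, 22.9 and 10.4 (log2 fold change 0.22 ± 0.43, adjusted p = 0.821), so the list did not move as a whole. The 25 lipogenesis genes had medians of -1.29 and -0.87, with 8 separated downward as deposited and 8 after scaling, beside the same shares of all genes, but 20 of 25 after scaling without NC-chow mouse 1, and 3 of the 8 reached the 1 FPKM minimum only through NC-chow. Scd1, the desaturase that makes monounsaturated fatty acids, was at 750, 653 and 547 against 379, 160 and 44.5 scaled FPKM (log2 fold change -2.20 ± 0.71, adjusted p = 0.191), and Elovl5, a fatty acid elongase, at 22.7, 28.4 and 52.3 against 5.64, 7.25 and 3.12 (log2 fold change -2.45 ± 0.48, adjusted p = 0.0694). Against NC-chow mouse 1 alone the scaled medians were -0.69 for cholesterol synthesis and -0.38 for lipogenesis.

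Of the 17 bile acid synthesis genes, 4 (Cyp27a1, Cyp8b1, Hsd3b7 and Hsd17b4) were separated downward on both scales, which is not far from the 16.8% of all genes as deposited and 13.4% after scaling (7 of 17 after scaling without FET-chow mouse 2, against 19.6%), and the list median was -0.95 as deposited and -0.44 after scaling. Cyp27a1, which starts the acidic route, was at 47, 74.8 and 98.7 against 26.4, 21.9 and 10.6 scaled FPKM (log2 fold change -1.88 ± 0.41, adjusted p = 0.0909), and Cyp8b1, which makes cholic acid, at 5.26, 13.5 and 9.98 against 2.7, 1.31 and 2.32 (log2 fold change -1.71 ± 0.46, adjusted p = 0.143). The 36 fatty acid oxidation genes lay nearer to the rest (medians -0.85 and -0.38, and -0.18 after scaling without FET-chow mouse 2), with Cyp4a10 the only one past the threshold, after scaling; its neighbour Cyp4a14 was at 3.95, 1.29 and 5.79 scaled FPKM in NC-chow and listed at 0 in FET-chow (adjusted p = 0.0876). The 21 apolipoprotein and lipoprotein genes had medians of -1.03 and -0.72 (-0.30 after scaling without FET-chow mouse 2), with 3 separated downward as deposited and 4 after scaling, close to the 16.8% and 13.4% of all genes. Without NC-chow mouse 1 the latter count was 9 (25% of all genes) and without FET-chow mouse 3 it was 11 (22.6%). A further 2 were separated upward on both scales, against 1.94% of all genes as deposited and 7.93% after scaling. These were Apom (0.462, 2.35 and 2.12 against 7.44, 7.74 and 7.71 scaled FPKM) and hepatic lipase, Lipc (34.7, 17 and 15.1 against 151, 66.5 and 84.3), with adjusted p of 0.2 and 0.0988 after scaling. The scaled upward count was 4 without NC-chow mouse 1 (15.8% of all genes) and 4 without FET-chow mouse 4 (15%).

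**Figure D4:**
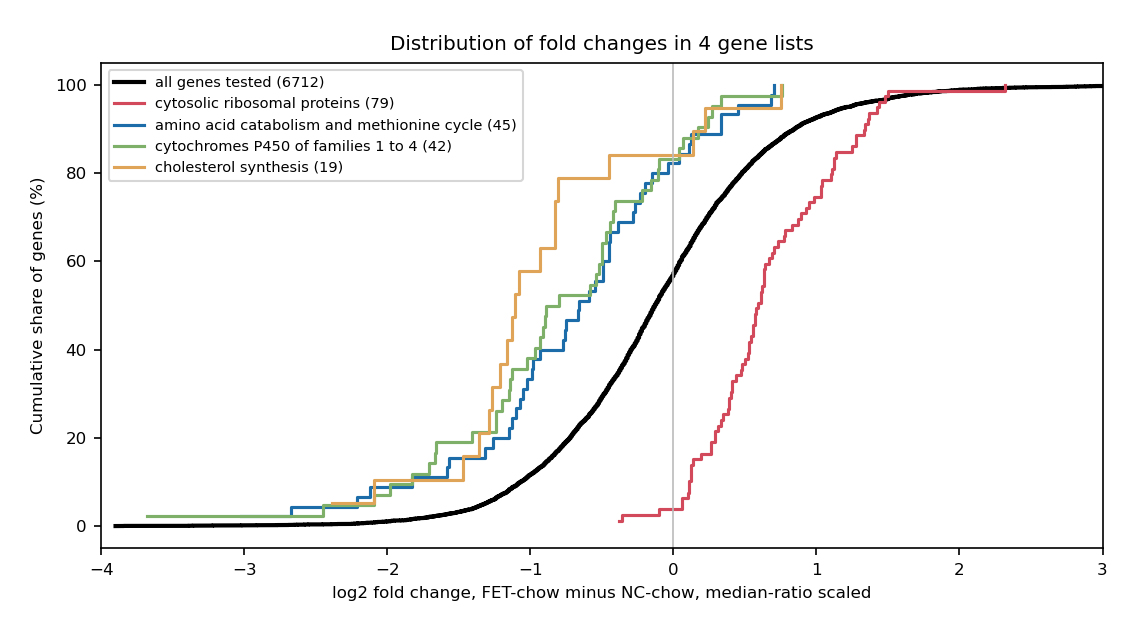
Cumulative share of genes (%) against the scaled log2 fold change (FET-chow minus NC-chow) for all 6712 genes and 4 gene lists; a curve to the right holds higher values. The ribosomal protein curve lies right of the curve for all genes (medians 0.59 and -0.13), and the curves for amino acid catabolism, P450 and cholesterol synthesis lie left of it (medians -0.66, -0.85 and -1.11).

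Secreted liver proteins lay on both sides of the median of all genes after scaling. The scaled medians were -0.25 for 26 abundant plasma proteins, -0.11 for 25 complement genes, -0.35 for 26 coagulation genes, -0.20 for 21 acute phase genes, 0.24 for 14 Serpina genes and 0.29 for 19 major urinary proteins, and none of these genes passed the limma threshold on either scale (unadjusted p under 0.05 after scaling in 8 of 26 plasma protein genes and 2 of 21 acute phase genes, with the shares of the other 4 lists between these, against 17.4% of all genes). After scaling, 8 of 26 plasma protein genes and 8 of 26 coagulation genes were separated downward, against 13.4% of all genes, and 0 and 2 upward, against 7.93%. Without NC-chow mouse 1 these scaled counts were 11 and 10 downward (25% of all genes) and 5 and 3 upward (15.8%). As deposited the downward counts were 3 and 7, against 16.8% of all genes, so the plasma protein count lay below the share of all genes on that scale. As deposited the medians were -0.75, -0.55, -0.82, -0.69, -0.26 and -0.14, so the Serpina and major urinary protein medians turned sign with the scaling, and the complement median lay below that of all genes as deposited and above it after scaling. The Serpina and major urinary protein medians lay above that of all genes on both scales. Leaving out 1 mouse as deposited, the Serpina median ran from -0.59 to -0.04. The major urinary protein median ran from -0.41 (without FET-chow mouse 3) to 0.14 (without NC-chow mouse 1). The acute phase genes were higher in NC-chow mouse 1 (mean scaled log2(FPKM + 1) 5.73) than in NC-chow mice 5 and 6 (4.03 and 4.23). Their scaled median was -1.03 against NC-chow mouse 1 alone, -0.54 without NC-chow mouse 5 and 0.13 without NC-chow mouse 1. Leaving out FET-chow mouse 2 also turned the plasma protein and complement medians, to 0.07 and 0.06, and the Serpina median was -0.01 without NC-chow mouse 6. The coagulation median was -0.12 and the major urinary protein median 0.68 without FET-chow mouse 2, and the latter was 0.05 without FET-chow mouse 4. Serum albumin (Alb) was at 6373, 7584 and 6158 against 5034, 3957 and 2508 scaled FPKM (log2 fold change -0.86 ± 0.45, adjusted p = 0.343), and Selenop, which carries selenium to other tissues, at 171, 125 and 109 against 37.3, 31.3 and 105 (log2 fold change -1.40 ± 0.47, adjusted p = 0.204). Both were separated downward. Among 22 hepatokines, Angptl6 (1.2, 2.67 and 2.66 against 5.44, 12.5 and 14.9 scaled FPKM; adjusted p = 0.0988) was separated upward together with Enho on both scales, and after scaling 5 were separated upward and 4 downward (7.93% and 13.4% of all genes). Without NC-chow mouse 1 these 2 hepatokine counts were 8 and 6, against 15.8% and 25% of all genes. Igfbp1, an IGF-binding protein induced by fasting, was at 4.06, 3.05 and 1.4 scaled FPKM in NC-chow and listed at 0 in FET-chow (adjusted p = 0.0909).

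Clock genes held 2 of the 20 genes lower after scaling, which is 2 of 15 tested against 0.298% of all genes. Both reached the 1 FPKM minimum only through NC-chow. Nfil3, a repressor that competes at D-box sites, was at 3.04, 3.46 and 2.33 scaled FPKM in NC-chow and listed at 0 in FET-chow (adjusted p = 0.0314; 0.0749 as deposited). Ciart, whose 3 E-boxes are shown above, was at 2.48, 2.37 and 2.9 and listed at 0 in FET-chow, where 3 fragments would give 0.451 to 0.657 FPKM (adjusted p = 0.0315; 0.0689 as deposited). Dbp, the activator at D-box sites, was at 13.1, 14.6 and 13.3 against 1.57, 0.48 and 5.47 (log2 fold change -2.33 ± 0.55, adjusted p = 0.112). The period gene Per2 was at 4.49, 12 and 7.05 against 3.93, 0.674 and 1.19 (adjusted p = 0.182). Of the 15 tested clock genes, 6 were separated downward after scaling (Nfil3, Ciart, Dbp, Per2, Per3 and Nr1d2), against 13.4% of all genes, and none upward. Nfil3, Ciart and Per3 reached the 1 FPKM minimum only through NC-chow, so they had to differ to be tested. The median was -0.91 as deposited and -0.45 after scaling, where it was -1.0 without NC-chow mouse 1 and -0.25 without NC-chow mouse 5. The time of day of sampling was not given in the sources used here.

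The 23 endoplasmic reticulum chaperone and unfolded protein genes had medians of -1.29 and -0.84. As deposited 9 were separated downward (16.8% of all genes) and after scaling 4, a share near the 13.4% of all genes (10 of 23 without NC-chow mouse 5, against 15.6%). Their mean scaled log2(FPKM + 1) was 3.55 in NC-chow mouse 1 and 2.76 and 2.81 in NC-chow mice 5 and 6, and the scaled median was -0.46 without NC-chow mouse 1 and -0.98 without NC-chow mouse 5. Hspa5 (BiP), the main chaperone of this compartment, was at 11, 11.5 and 4.69 against 1.02, 0.456 and 2.64 scaled FPKM (log2 fold change -2.10 ± 0.70, adjusted p = 0.202). Along the lobule, 14 pericentral markers had a scaled median of -0.79 and 18 periportal markers -0.84, and against NC-chow mouse 1 alone -0.68 and -0.25. Both medians lay below that of all genes in each of these comparisons.

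Markers of other cell types varied in level. Lymphocyte, neutrophil and adipocyte markers did not reach the minimum level, summing to at most 1.49, 2.74 and 1.73 FPKM in any NC-chow mouse and 1.33, 0 and 1.32 in any FET-chow mouse. The 7 Kupffer cell and macrophage markers (5 tested) summed to 11.9 to 18.6 scaled FPKM in NC-chow and 20.6 to 66.5 in FET-chow, but as deposited the sums overlapped, at 11.7 to 30 and 12 to 77 FPKM. Cd5l, a macrophage-secreted protein, was the 1 of 5 separated upward, against 7.93% of all genes, at 3.82, 2.7 and 3.04 against 31.8, 6.27 and 10.3 (adjusted p = 0.183). Red blood cell markers summed to 238 to 864 scaled FPKM in NC-chow and 336 to 496 in FET-chow. The 6 stellate cell markers summed to 6.94 to 11.5 and 3.39 to 22.2 scaled FPKM, and the 6 endothelial markers to 6.26 to 8.19 and 4.37 to 10.6. The 5 cholangiocyte markers (1 tested) summed to 6.6 to 12.1 and 3.15 to 8.39 scaled FPKM. The 4 exocrine pancreas markers (1 tested) summed to 1.41 to 2.79 in NC-chow and 3.47 to 4.04 in FET-chow after scaling, without overlap, but to 2.28 to 3.79 and 1.83 to 5.13 FPKM as deposited. Skeletal muscle markers reached 45.6 FPKM in NC-chow mouse 1 and at most 2.5 in FET-chow.

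Few short non-coding entries reached the minimum of 1 FPKM, which at these depths takes only a few fragments. It was reached by 54 of 1558 small nucleolar RNAs, 38 of 1383 spliceosomal small nuclear RNAs and 56 of 2202 miRNA entries, and 52, 28 and 38 of these were listed at 0 in some mouse. An entry that passed through the group where it is high had to differ, so no median is given for these classes. The 521 of 10234 processed pseudogenes that passed had a median of 0.15 as deposited and 0.47 after scaling, but of -0.03 and 0.02 against NC-chow mouse 1 alone. Their mean scaled log2(FPKM + 1) was 2.29 in that mouse, inside the FET-chow range of 2.14 to 2.62, and 1.76 and 1.69 in NC-chow mice 5 and 6. As deposited 34 were separated upward and 25 downward, against 1.94% and 16.8% of all genes, and after scaling 71 and 15, against 7.93% and 13.4%. The same limit of the filter holds for them, since 211 of the 521 were listed at 0 in some mouse. Lars2 and Mir6236 were far lower in NC-chow mice 5 and 6, which had the lowest shares of ribosomal RNA entries, than in the other 4 mice. Lars2, the mitochondrial leucyl-tRNA synthetase gene, was at 1406, 0.0899 and 0.156 FPKM in NC-chow mice 1, 5 and 6 and at 2565, 2033 and 2442 in FET-chow, and Mir6236 was at 3048, 316 and 273 and at 5132, 6272 and 6801. NC-chow mouse 1, with 26.5% ribosomal RNA entries, thus lay nearer to the FET-chow mice for both, although FET-chow mouse 2, with the highest share among the 6, had the lowest Mir6236 level of the FET-chow mice, and neither passed the threshold (adjusted p = 0.0612 and 0.0995). The part of ribosomal RNA reads in these values was not tested.

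The IVF-chow mice, which shared culture and transfer but not freezing, had list levels that are given beside the others without a test. Mean scaled log2(FPKM + 1) of the P450 list was 4.15 ± 0.14 (SD, n = 3) in NC-chow, 3.79 ± 0.25 in IVF-chow and 3.31 ± 0.12 in FET-chow. For amino acid catabolism it was 4.45 ± 0.15, 4.12 ± 0.14 and 3.72 ± 0.15, and for cholesterol synthesis 2.51 ± 0.35, 2.12 ± 0.18 and 1.55 ± 0.33. Ribosomal proteins were at 4.88 ± 0.17, 5.08 ± 0.45 and 5.55 ± 0.15. The IVF-chow mean lay between the others for each of these 4 lists, and for 26 of all 44 lists with at least 10 tested genes. It was outside them for sulfotransferases and UDP-glucuronosyltransferases (3.40, 3.43 and 2.80), endoplasmic reticulum chaperones (3.04, 3.18 and 2.27), apolipoproteins (5.67, 5.90 and 5.41) and cytosolic heat shock proteins (3.09, 3.89 and 2.77 in NC-chow, IVF-chow and FET-chow), among others. IVF-chow mouse 2 had 61.9% ribosomal RNA entries, the most of any mouse.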

How the data were processed

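Liver RNA was sequenced on an Illumina Nova6000 after TRIzol extraction. The deposited table holds FPKM values that the authors made; the submitters' processing notes name FastQC 0.11.5, STAR 2.5.3a, StringTie 1.3.1c and DESeq2 1.16.1, and the genome build and strand setting were not given in the sources used here. No columns of per-sample values were left out. Gene identifiers were matched to GENCODE vM21 on GRCm38 (55154 of 55335), which gave symbols, classes and coordinates; promoter windows came from RefSeq on GRCm38.p6. Depth was estimated from the steps in low FPKM values (37.8% to 46.7% of low values fell on a step, against 8.89% to 15.5% by chance), so fragment numbers are estimates and cover counting error only.

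Genes averaging at least 1 FPKM in the 6 livers entered a limma 3.58.1 fit (R 4.3.3) of log2(FPKM + 1): 1 model over the 3 groups (9 mice, which share 1 estimate of the spread), with an intensity trend, a two-sided test of FET-chow minus NC-chow, and Benjamini-Hochberg adjustment over all 6712 genes. A log2 fold change on this scale understates changes of low genes. Median-ratio scaling used the 5768 genes above 0 in all 9 mice. A group was called separated where its 3 values lay all above or all below the other group's. The fit was tested on simulated data, but the outcome is not given here and no statement above rests on it. Tables were made with Python 3.11.15 and pandas 2.3.3.

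Genes named in the text were those past the threshold, the 2 most abundant and the most significant member of each of 48 gene lists, cell type markers (11 lists), the 10 most abundant genes and the 5 largest separated values in each direction; others are described with their values seen. The members and lists were chosen with earlier results of these data known. Alternatives were the scaling, the pseudocount (0.1), no filter or a minimum of 10 FPKM, only 2 groups in the fit, and leaving out each mouse; scaling combined with leaving out a mouse, with NC-chow mouse 1 alone or with 2 groups was added after seeing the data. A result for 1 gene is not reported here.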

Additional observations from a re-analysis of the deposited data

How the results depend on the processing

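No paired analysis was possible because the NC-chow and FET-chow mice share no mouse number. The 14 genes past the threshold became 26 after median-ratio scaling, 19 after scaling to the nuclear protein-coding total, 15 with a pseudocount of 0.1, 6 with a minimum of 10 FPKM, 7 with only the 2 groups in the fit and 9 with NC-chow mouse 1 as the only NC-chow mouse; with no filter none passed in limma, while 2717 had an unadjusted p under 0.05. Leaving out 1 mouse gave 1 (without FET-chow mouse 3) to 111 (without NC-chow mouse 1), and after scaling 4 (without NC-chow mouse 5) to 169 (without NC-chow mouse 1), with 24 without FET-chow mouse 2. After scaling, the count was 9 with NC-chow mouse 1 alone and 4 with only the 2 groups. Where a fit left 1 mouse in a group, that mouse was taken to vary like the others. The median over all genes stayed below 0 in every fit, at -0.05 after scaling to the nuclear protein-coding total and -0.08 after median-ratio scaling without FET-chow mouse 2. The sign turned for Cyp2d10 (0.07 after median-ratio scaling, 0.20 after protein-coding scaling, 0.16 against NC-chow mouse 1, -0.90 to 0.11 leaving out 1 mouse), for Fdps (0.22, 0.35, 0.40 and -0.78 to 0.59 in the same fits) and for Ass1 (0.26 against NC-chow mouse 1). The cause was not tested. Depth limits what a listed 0 in the FET-chow libraries can show.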

Other observations

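Among lists not described above, several lay close to the median of all genes (-0.13 after scaling). The scaled median was 0.03 for 10 tested imprinted genes, -0.28 for 20 interferon response genes, -0.13 for 14 MHC genes, -0.18 for 30 lysosome and autophagy genes, -0.32 for 16 peroxisome biogenesis genes and -0.06 for 21 hepatocyte transcription factors, and no gene of these lists passed the limma threshold on either scale (unadjusted p under 0.05 in 0 to 4 genes of each list after scaling, against 17.4% of all genes). Glucocorticoid response genes lay lower, at -0.58 for 16 genes (-1.04 against NC-chow mouse 1 alone and -0.29 without it), with 3 separated downward after scaling, against 13.4% of all genes (6 without NC-chow mouse 1, against 25%). Of the 3, 1 reached the 1 FPKM minimum only through NC-chow. The median was -0.56 for 16 immediate early and stress response genes, but -0.14 against NC-chow mouse 1 alone and -1.11 without FET-chow mouse 4. Of these 16, 3 were separated downward, near the 13.4% of all genes (7 without FET-chow mouse 4, against 20.2%). Of the 3, 2 reached the 1 FPKM minimum only through NC-chow and so had to differ to be tested. For 14 cytosolic heat shock proteins the median was -0.37, with 1 separated downward against 13.4% of all genes (6 without FET-chow mouse 4, against 20.2%), and -0.04 without FET-chow mouse 2. Leaving out 1 mouse turned the sign for imprinted genes (-0.09 without FET-chow mouse 2), MHC genes (-0.40 without NC-chow mouse 1, 0.06 without NC-chow mouse 5) and transcription factors (-0.19 without FET-chow mouse 2, 0.11 without FET-chow mouse 4), and moved the interferon response median to -0.43 (without FET-chow mouse 3) or -0.16 (without FET-chow mouse 2), the lysosome median to -0.07 (without FET-chow mouse 4) and the peroxisome median to -0.19 (without FET-chow mouse 4). Splicing factors lay lower (-0.46 for 45 genes), with 10 separated downward after scaling, against 13.4% of all genes (24 without NC-chow mouse 1, against 25%). Of the 10, 1 reached the 1 FPKM minimum only through NC-chow. Among 17 nucleotide metabolism genes (-0.50), 7 were separated downward after scaling: Tymp, which passed the threshold, and Xdh, Upp2, Ampd2, Dpyd, Upb1 and Adk, against 13.4% of all genes. Of the 7, 2 (Tymp and Ampd2) reached the 1 FPKM minimum only through NC-chow. B2m, the light chain of MHC class I, was at 995, 1030 and 1118 scaled FPKM in NC-chow and at 389, 599 and 922 in FET-chow (log2 fold change -0.80 ± 0.39, adjusted p = 0.314), so the groups did not overlap.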
